A study of Mus musculus with 17 samples.

Results

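The genes described here encode the subunits of voltage-gated calcium and sodium channels. They are the autosomal protein-coding mouse genes whose symbols begin with Cacna, Cacnb, Cacng or Scn followed by a digit, and 39 of the 20807 autosomal protein-coding genes in the GENCODE annotation met that rule. A further gene, Cacna1f, matched by name but lies on the X chromosome and was left out. Accessible regions that overlapped a gene body extended by 2 kb on each side were assigned to that gene, which gave 1164 of the 145224 autosomal regions kept, and none of them fell to a pair of these genes.

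The measurements are ATAC-seq peaks from NeuN+ neuronal nuclei sorted from the bilateral nucleus accumbens of C57BL/6 mice aged 52 to 54 days, given as C57BL/6J in the study's methods. Females in diestrus, females in proestrus and males were each compared between controls, which received no cocaine, and animals taken 1 h after 10 mg/kg cocaine given i.p. Each library pooled tissue from 3 animals of a group, and there were 17 libraries: 3 in every group but the male cocaine group, which had 2. NeuN marks neurons of every type, so the nuclei are a mixture, and no vehicle injection is described for the controls, so an effect of cocaine and one of handling or injection cannot be told apart. Diestrus cocaine library 2 has no estrous stage entered among its labels and was grouped by the name it was given. Nothing beyond the pooling says how the samples of a group were kept apart, so p-values measure the spread between these pools.

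Voltage-gated calcium channels are built around a pore-forming alpha1 subunit, which sets the current type, together with beta and alpha2delta subunits that govern trafficking and gating. Most gamma subunits present in brain act instead as auxiliary proteins of AMPA-type glutamate receptors. Sodium channels pair a pore-forming alpha subunit, which starts and carries the action potential, with beta subunits that tune gating and anchoring, and in medium spiny neurons, the principal cells of the accumbens, these channels set firing and link activity to calcium-dependent transcription.

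Between 75484 and 157014 peaks were deposited per library, and the male cocaine libraries held the fewest. The promoters of all 4 neuronal and all 8 medium spiny neuron markers carried a peak in 17 of 17 libraries, whereas the microglial markers Cx3cr1 and Tmem119, the endothelial markers Cldn5 and Flt1 and the astrocytic marker Gja1 carried a peak in none. Glial signal was not absent: Mbp was called in every library, Gfap and Pdgfra in 9 of 9 control and 7 of 8 cocaine libraries, Aqp4 in 0 of 9 and 4 of 8, and P2ry12 in 3 of 9 and 5 of 8. Mog and Mag were called in proestrus cocaine library 2 alone, and Slc1a3 and Olig2 in that library and in diestrus cocaine library 3, Csf1r in 2 controls, and Pecam1 in 3 of 9 and 4 of 8. Proestrus cocaine library 2 thus had all 5 oligodendrocyte markers, with a summed fold enrichment of 29.6 against 11.9 to 12.6 in the other two libraries of its group. Of the 4 astrocyte markers 1 was called in each control library and 0 to 3 after cocaine. Their sum did not overlap between treatments in diestrus, at 3.74 to 4.36 in controls and 6.89 to 8.04 after cocaine, where Aqp4 was called in 0 of 3 and 3 of 3 libraries; it was 2.65 to 3.25 and 3.25 to 7.17 in proestrus, and 3.72 to 5.6 and 0 to 2.79 in males. The promoter of Slc17a7, a vesicular glutamate transporter of cortical excitatory neurons that accumbens neurons largely lack, carried a peak in 9 of 9 control libraries and in 1 of 8 cocaine libraries. That one was diestrus cocaine library 1, at 13.7, with the other two of its group at 0. All 4 cortical excitatory markers were called together only in the male controls. Their summed fold enrichment was 29.3 to 31.5 in the male controls and 3.17 to 3.26 in the male cocaine libraries, 4.13 to 17.6 and 8.96 to 19.8 in the diestrus control and cocaine libraries, and 15.3 to 17.5 and 9.95 to 11.1 in the proestrus ones. These markers move with treatment and sex in the comparisons that follow, and their part in any result was not tested. Diestrus cocaine library 1 stood apart from the other two libraries of its group in most comparisons, so results for that group are given with and without it, and so are the counts for proestrus cocaine library 2. In nuclei pooled from a tissue, a change in the share of a cell type and a change in accessibility per nucleus cannot be told apart.

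A promoter here is a peak within 1 kb of any annotated transcript start of the gene. By that measure 31 of the 39 genes (79.5%) had an accessible promoter in all 17 libraries, against 56.6% of all autosomal protein-coding genes, and 5 (12.8%) had one in no library, against 30.6%. The promoters called throughout covered every alpha1, alpha2delta and beta gene of the calcium channels, the central sodium alpha genes Scn1a, Scn2a, Scn3a and Scn8a, all 4 sodium beta genes, 5 of the 6 AMPA receptor gamma genes, and Scn9a. The 5 without a promoter peak are known for expression outside the brain or in glia: Scn4a and Cacng1 in skeletal muscle, Scn10a and Scn11a in peripheral sensory neurons, and Scn7a, a sodium-sensing relative. Between these, Cacng5 was called in 16 libraries, missing only proestrus control library 1. Cacng6 was called in 8 libraries, and its peaks were low where present, reaching 3.41-fold enrichment.

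**Figure D1:**
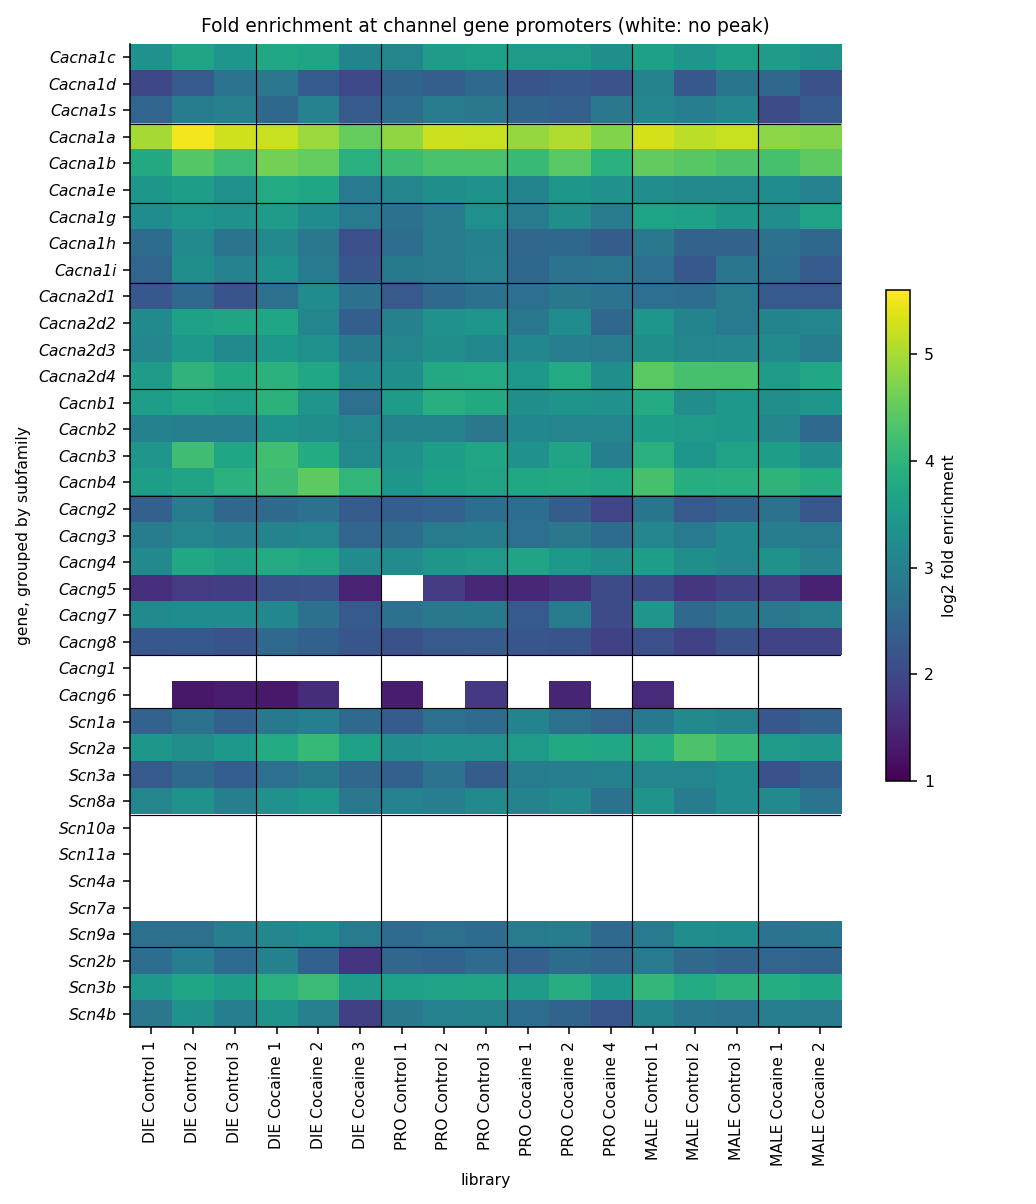
Promoter peak fold enrichment (log2 colour scale) of the channel genes reported, in rows grouped by subfamily, in each of the 17 libraries, in columns grouped by condition; white marks a library with no peak. Cacna1a is brightest in every library, and Scn4a, Scn7a, Scn10a, Scn11a and Cacng1 are white throughout.

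Fold enrichment is the peak height over the local background as the peak caller gave it. The strongest promoter peak was that of Cacna1a, which encodes the P/Q-type pore subunit that triggers neurotransmitter release, at 22.9 to 46.1 across libraries with a median of 33.0. The next was Cacna1b, the N-type pore subunit, at 13.8 to 24.9. The weakest promoters called in every library included Cacng8 (3.72 to 5.94) and Cacna1d (4.002 to 8.29), so the levels of Cacna1a and Cacna1b did not overlap those of these 2 genes in any library. Which start carried the peak differed between genes. At the 5′ end of the longest annotation alone, Cacna1a, Cacna1c and Cacna1d had no peak in any library, Cacna1e had one in 3 and Cacna2d4 in 5, so their promoter calls rest wholly or mostly on internal starts; Cacng5 had one in 14 of the 16 libraries that called its promoter. For Cacna1a the peak lay 526 bp from the start of a short transcript near the 3′ end of the gene, with its summit in a coding exon.

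Most regions of these genes were in introns. Of the 1164 regions, 90 were promoter regions, 1061 intragenic and 13 in the 2 kb flanks, and the summits of 1066 (91.6%) lay in introns, 34 in untranslated exons, 11 in coding exons, 12 in exons of noncoding transcripts and 41 outside the gene body. Cacna2d3 (217 regions over 817 kb), Cacna1c (159 over 609 kb) and Cacna1e (125 over 494 kb) held the most. Region density was lowest in the peripheral, muscle and glial sodium alpha genes, at 4.64 regions per 100 kb, against 14.9 (T-type alpha1) to 24.4 (P/Q-, N- and R-type alpha1) in the other subfamilies. Promoter regions were called in all 17 libraries in 54.4% of cases, against 61.5% of promoter regions genome-wide, and intragenic ones in 19.98%, against 17.5%. The regions were broad: the median width was 2343 bp at promoters and 946 bp within genes, against 1741 and 723 bp over all regions of those classes. Median fold enrichment was 4.57 at promoter regions (5.99 over all) and 2.96 at intragenic ones (3.02 over all).

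The summits of 5 intronic regions that recur in the comparisons are shown so that their sequences can be read beside their values. Each is 201 bases centred on the summit, on the plus strand of GRCm38, and capitals mark matches to the AP-1 motif, TGACTCA or its reverse complement TGAGTCA, the site bound by Fos and Jun proteins that neuronal activity induces.
Cacna2d1 chr5:16000943-16001143: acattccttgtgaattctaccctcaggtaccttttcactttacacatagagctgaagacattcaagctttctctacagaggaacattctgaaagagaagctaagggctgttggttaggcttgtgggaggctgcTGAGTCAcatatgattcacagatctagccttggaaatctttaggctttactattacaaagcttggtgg
Scn1a chr2:66346249-66346449: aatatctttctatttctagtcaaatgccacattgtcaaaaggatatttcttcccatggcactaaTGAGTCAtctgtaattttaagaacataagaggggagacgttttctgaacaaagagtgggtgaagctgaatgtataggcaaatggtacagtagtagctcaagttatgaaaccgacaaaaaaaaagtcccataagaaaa
Cacna1c chr6:118884253-118884453: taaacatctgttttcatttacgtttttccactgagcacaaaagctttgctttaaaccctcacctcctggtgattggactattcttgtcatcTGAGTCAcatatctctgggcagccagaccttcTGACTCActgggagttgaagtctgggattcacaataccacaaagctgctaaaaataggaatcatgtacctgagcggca
Cacna2d3 chr14:29296264-29296464: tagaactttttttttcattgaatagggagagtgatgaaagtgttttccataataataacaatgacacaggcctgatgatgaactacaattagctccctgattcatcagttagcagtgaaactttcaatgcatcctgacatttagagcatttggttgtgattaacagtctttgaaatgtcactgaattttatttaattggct
Scn11a chr9:119796821-119797021: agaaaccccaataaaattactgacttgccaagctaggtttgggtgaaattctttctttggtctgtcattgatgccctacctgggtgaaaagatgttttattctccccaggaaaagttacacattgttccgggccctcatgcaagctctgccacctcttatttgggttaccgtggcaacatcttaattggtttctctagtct

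The windows of Cacna2d1, which encodes the alpha2delta subunit bound by gabapentin, and of Scn1a held 1 motif each, that of Cacna1c held 2, and those of Cacna2d3 and Scn11a held none. Over all channel gene regions the AP-1 motif occurred within 100 bp of the summit on either strand in 108 (9.28%), against 10.0% of all regions. Among the 263 regions called in every library the share was 11.4%, against 11.6%. The cAMP response element TGACGTCA occurred in 2 regions (0.172%, against 0.494%), the Egr motif (GCGTGGGCG or GCGGGGGCG) in 6 (0.515%, against 0.654%) and the RE1 motif of the repressor REST (TCAGCACCNNGGAC) in none, against 0.0103% of all regions. A match is only a description of the window.

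The number of channel gene regions called varied with treatment and sex. Of the 1164, the diestrus controls called 764, 828 and 845, the diestrus cocaine libraries 846, 561 and 504, the proestrus controls 678, 707 and 791, the proestrus cocaine libraries 668, 588 and 639, the male controls 762, 628 and 752, and the male cocaine libraries 400 and 342. Libraries differed in their total number of peaks, so the share of each library's called regions that belonged to these genes was also taken. It was 0.925% ± 0.0172 (SD, n = 3) in diestrus controls and 0.938% ± 0.0315 in proestrus controls, against 0.794% ± 0.0777 and 0.767% ± 0.00924 after cocaine. Diestrus cocaine library 1, at 0.882%, lay just under its controls, and the other two were at 0.735% and 0.766%. In males the share was 0.720% ± 0.0432 in controls and 0.649% ± 0.00884 (n = 2) after cocaine. When each library was cut to the same number of its strongest peaks, both female cocaine groups stayed below their controls in mean (0.831% and 0.710% in diestrus, 0.803% and 0.694% in proestrus), while the male order turned, with 0.629% in controls and 0.668% after cocaine. No test was made on these shares.

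**Figure D2:**
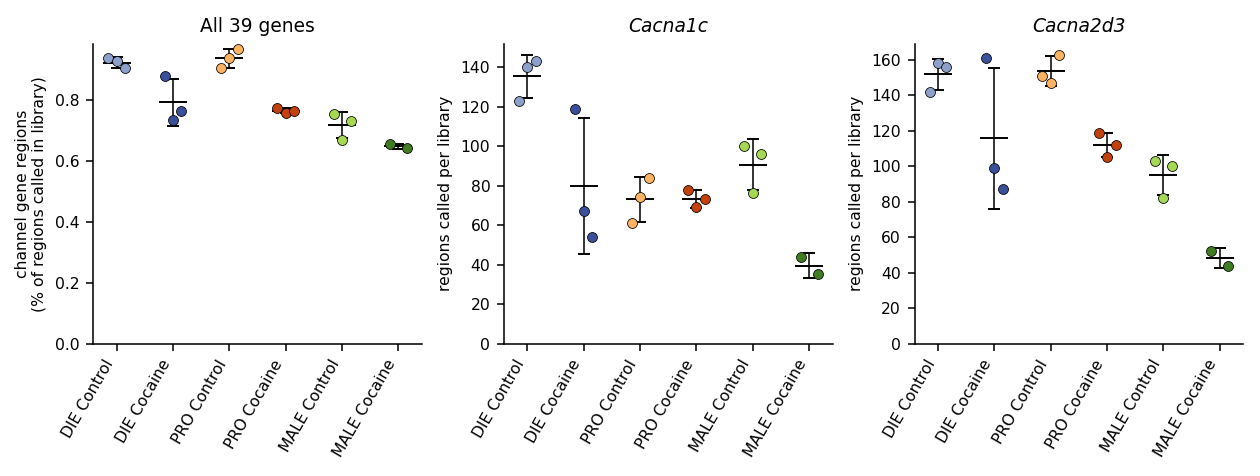
Left, channel gene regions as a percentage of all regions called in a library; middle and right, number of Cacna1c and Cacna2d3 regions called. Points are libraries, bars the mean ± SD of each group; the diestrus controls call 123 to 143 Cacna1c regions and the male cocaine libraries 35 and 44.

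Calls were also counted by class, without a test. Promoter regions were called at 82.2% ± 5.88 (SD) in diestrus controls, 74.8% ± 10.3 after cocaine, 80.0% ± 6.19 and 74.4% ± 1.93 in proestrus, and 83.0% ± 7.56 and 64.4% ± 7.86 in males. Intragenic regions went from 68.5% ± 3.46 to 53.1% ± 16.02 in diestrus, from 60.6% ± 5.02 to 52.6% ± 3.94 in proestrus and from 59.5% ± 6.19 to 29.2% ± 3.13 in males. Over all promoter regions the control and cocaine means were 81.95% and 77.8% for the diestrus libraries, 81.2% and 77.5% for the proestrus ones and 83.3% and 69.7% for the male ones. Over all intragenic regions they were 58.5% and 50.1%, 50.1% and 53.2%, and 63.0% and 32.1%. The proestrus difference at channel gene promoter regions was close in size to the spread of the controls, and the groups overlapped there. At intragenic regions the proestrus libraries ranged from 56.93% to 66.35% in controls and from 48.26% to 55.98% after cocaine. The diestrus groups overlapped, because cocaine library 1 called as many intragenic regions as the highest control. Cacna1c, the main L-type pore subunit in brain, was called at 123, 140 and 143 regions in diestrus controls and 119, 67 and 54 in the diestrus cocaine libraries. Its proestrus values were 61, 74 and 84 in controls and 78, 69 and 73 after cocaine, and its male values 100, 76 and 96, then 44 and 35. Cacna2d3, an alpha2delta subunit, had 142, 158 and 156 in diestrus controls, 161, 99 and 87 after cocaine, 151, 147 and 163 in proestrus controls, 119, 105 and 112 after cocaine, 103, 82 and 100 in male controls, and 52 and 44 after cocaine. Its proestrus and male groups did not overlap between treatments; its diestrus groups did, through library 1.

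Which regions were present or absent as a whole was asked by counting those called in every library of one group and in none of the other. Leaving out a library can only keep or raise such a count. The direction of the changes given for left-out libraries is therefore fixed by the rule. In diestrus, 2 channel gene regions (0.172%, against 1.12% of all regions) were called only after cocaine and 35 (3.01%, against 1.28%) only in controls. Of the 35, Cacna1c held 14 (8.8% of its 159 regions), Cacna2d3 10 (4.61% of its 217) and Cacna1a 3 (of its 56), and all were intragenic. Ranked by the median over all libraries that called them, the highest were an intron region of Cacna1c at chr6:118620482-118621625, at 4.91, 2.57 and 5.29 in the diestrus controls, and of the gamma subunit gene Cacng2, which encodes stargazin, at chr15:78088402-78089027, at 3.61, 3.8 and 3.53 in the diestrus controls. Others of the 4 highest lay in Scn11a (4.13, 3.8 and 3.84) and Cacna1a (2.97, 2.79 and 2.91). The 2 called only after cocaine lay in Scn2a, at 3.32, 2.64 and 3.22, and in Cacna2d3, at 3.09, 2.52 and 2.64. Without diestrus cocaine library 1 the counts were 6 and 146, against 3598 and 10642 of all regions. Without diestrus cocaine library 2 or 3 the cocaine-only count was 12 or 15, against 2670 or 3457 of all regions. Without diestrus control 1, 2 or 3 the pairs of counts were 8 and 72, 6 and 60, and 7 and 49. Over all regions those pairs were 2133 and 4837, 2358 and 4111, and 2835 and 3267.

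In proestrus, 9 regions (0.773%, against 2.42%) were called only after cocaine and 31 (2.66%, against 1.65%) only in controls. Of the 31, Cacna2d3 held 6 (2.765% of its 217 regions) and Cacna1e, the R-type pore subunit, 5 (of its 125). Cacna2d2 held 4 (of its 29) and Scn8a 4 (of its 46). Promoter regions made up 3 of the 31. The highest after cocaine were intron regions of Cacnb4 at chr2:52460636-52461973, with an AP-1 motif, at 3.1, 2.57 and 2.62, Cacna1c (2.8, 2.89 and 2.62), Cacnb2 (2.8, 3.21 and 2.51) and Cacna1b (2.8, 2.78 and 2.41). Among the highest in controls were Cacna2d2 (3.38, 4.06 and 3.51 and, at a separate intron region, 3.17, 3.02 and 2.94) and Cacna1c (2.43, 2.9 and 2.56). With 1 library left out, the cocaine-only count was between 11 and 41. It was highest without proestrus cocaine library 2, which had the oligodendrocyte markers (41, against 9074 of all regions). The control-only count was between 41 and 66, the highest without control 1 (66, against 5421 of all regions). In males, 4 regions (0.344%, against 1.68%) were called only after cocaine and 160 (13.7%, against 16.7%) only in controls, in 25 genes. Cacna1c held 25 of the 160 (15.7% of its 159 regions), Cacnb4 23 (of its 68), Cacna2d3 19 (8.76% of its 217) and Cacna1e 13 (of its 125). The 4 called only after cocaine were 2 in Scn9a (3.17 and 2.67, then 2.73 and 2.44), and 1 each in Scn2a (4.04 and 2.56) and Cacna2d1 (2.4 and 3.14). Among the highest in male controls were Cacna1c at an internal start (7.78, 5.1 and 5.93), Cacnb4 (4.08, 5.92 and 5.49) and Cacng2 (5.35, 4.54 and 3.95). Without male control 2 the 160 became 268 (against 34549 of all regions), and without any other 1 library 184 to 218. Without male cocaine library 2 the 4 became 9 (against 3790 of all regions). The male cocaine libraries had fewer peaks than any others.

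**Figure D3:**
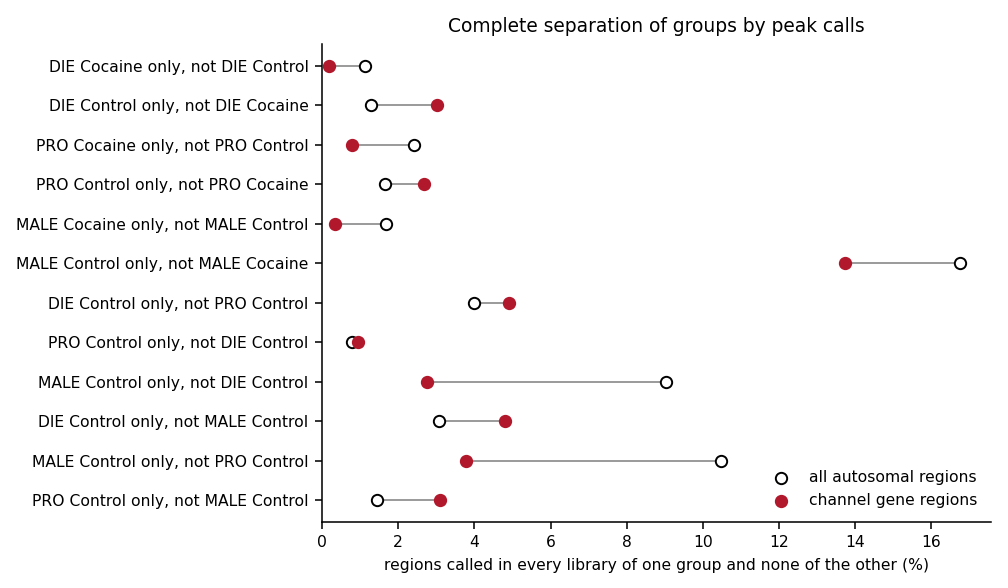
Percentage of regions called in every library of one group and none of the other, for 12 comparison directions; open points are all autosomal regions and filled points channel gene regions. Filled points lie to the right of open ones in the diestrus and proestrus control-only directions, and to the left in the male ones.

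Among untreated animals, 57 channel gene regions (4.90%, against 4.0%) were called in all 3 diestrus controls and no proestrus control, and 11 (0.945%, against 0.788%) the other way. Cacna1c held 28 of the 57, which is 17.6% of its 159 regions, and Cacna2d3 held 7 (3.23% of its 217). The 28 lay 50.3 to 610 kb from the 5′ end of Cacna1c, with a median of 260 kb, and their median fold enrichment of 2.95 was low. In the other groups they were called 22, 3 and 2 times in the diestrus cocaine libraries, 6, 5 and 6 in the proestrus cocaine libraries, 9, 4 and 8 in the male controls, and 0 and 1 in the male cocaine libraries. Diestrus cocaine library 1 thus resembled its controls at these regions, and the other two did not.

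The highest regions in this direction were in Cacna1c (5.29, 6.59 and 3.84), Cacna2d1 (6.07, 6.36 and 3.94), Cacna2d4 (5.68, 4.02 and 4.46) and Cacnb4 (4.39, 3.91 and 3.22). The 11 in the proestrus direction included 5 in Cacna1e and 3 in Cacna2d3; high among them were 2 in Cacna1e (the first at 2.43, 3.48 and 2.94, the second at 2.22, 2.78 and 2.84) and 1 in Cacna2d3 (2.85, 2.67 and 2.56). Without diestrus control 1 the count of 57 became 93, against 9811 of all regions. Without proestrus control 1 or 2 the count of 11 became 33 or 34, against 3019 or 2971 of all regions. With any 1 control library left out, the diestrus-only count was between 69 and 93 and the proestrus-only count between 14 and 34.

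**Figure D4:**
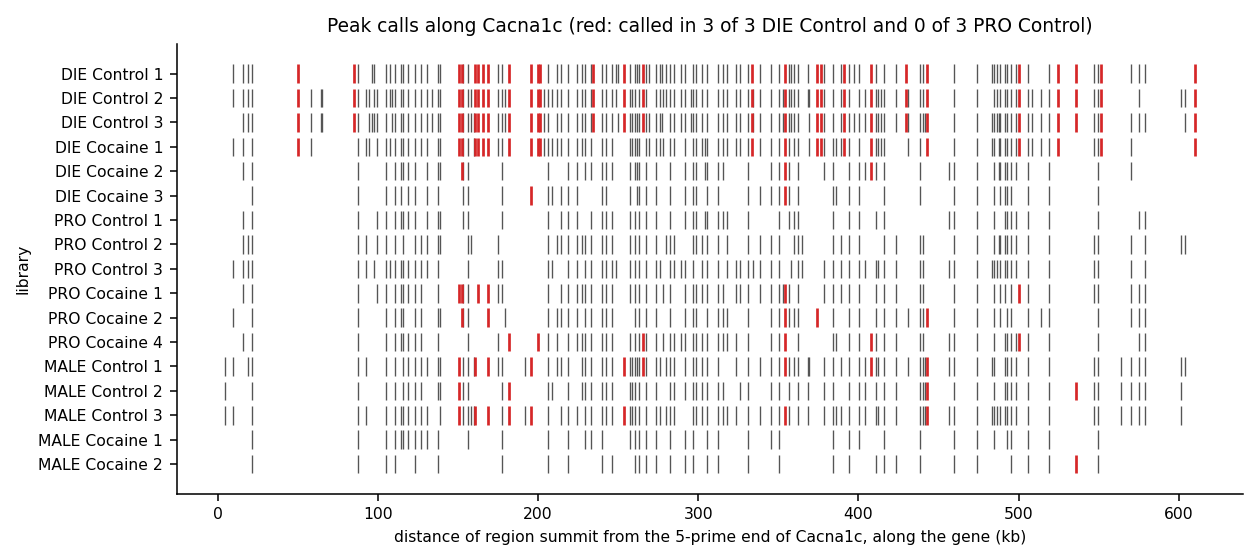
Regions called along Cacna1c in each of the 17 libraries; the axis is the distance of the region summit from the 5′ end of the gene in kb, and red marks the 28 regions called in 3 of 3 diestrus controls and 0 of 3 proestrus controls. The red regions are spread from 50.3 to 610 kb, and 22 of them recur in diestrus cocaine library 1.

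Between male and female controls, 32 regions (2.75%, against 9.04%) were called in males and not in diestrus females, and 56 (4.81%, against 3.06%) the other way. Cacna2d1 led the former with 6 of its 46 regions. Cacna2d3 (22, 10.1% of its regions) and Cacna1c (21, 13.2%) led the latter. Against proestrus the counts were 44 (3.78%, against 10.5%) and 36 (3.09%, against 1.43%). Cacna2d1 (8 of its 46 regions) and Cacna1c (7, 4.40% of its regions) led the male-only set. The proestrus-only set was led by Cacna2d3 (18, 8.3%) and Cacna1e (8 of its 125). Cacna2d3 shows the pattern among controls in its values. An intron region at chr14:29160100-29161145 was at 3.23, 2.23 and 2.8 in the diestrus controls and 2.96, 3.48 and 3.03 in the proestrus controls. It had no call in any male library, nor in any female cocaine library (0 of 8 cocaine and 6 of 9 control libraries). Another at chr14:29586291-29588436 was at 3.87, 3.13 and 4.05 in the diestrus controls and 2.85, 3.02 and 2.75 in the proestrus controls, again with no male call. The male-only regions of Cacna2d1, at 3.95, 3.99 and 4.06 for one at chr5:16297090-16297821, had no call in the diestrus controls. The summed cortical markers were 29.3 to 31.5 in the same male controls, and their part in these counts was not tested. Leaving out 1 control library gave 38 to 51 and 63 to 110 against diestrus, and 52 to 77 and 38 to 76 against proestrus. Over all regions the ranges were 14446 to 18155 and 5155 to 8789, and 16781 to 21328 and 2437 to 4905.

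Regions called in all 17 libraries allow their height to be compared. Fold enrichment was taken on the log2 scale after quantile normalization, and limma tested 36170 regions, 263 of them in channel genes, with Benjamini-Hochberg adjustment over all of them at 0.05. In diestrus, 6 of the 263 were higher after cocaine (2.28%, against 6.79% of all regions) and 19 lower (7.22%, against 6.38%); the median change was -0.09 for channel gene regions and 0.00 for all. The 6 higher regions were 3 in Cacna2d1 and 1 each in Cacnb2, Cacnb4 and Scn2a. The 19 lower regions included 3 each in Cacna1h and Cacna2d2 and 2 each in Cacna1a and Cacng2. In proestrus 4 rose (1.52%, against 2.75%) and 9 fell (3.42%, against 2.45%), and in males 5 rose (1.90%, against 3.51%) and 7 fell (2.66%, against 5.2%).

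In diestrus the largest falls were in the T-type pore gene Cacna1h, in Cacna1s and in Cacna1c. The Cacna1h region at chr17:25409243-25412623 was at 5.68, 13.7 and 10.5 in the diestrus controls and 7.84, 4.91 and 3.22 in the diestrus cocaine libraries (log2 fold change -0.91 ± 0.21 (SE), adjusted p = 0.006), and its groups overlapped. The Cacna1s region at chr1:136089345-136090283 was at 9.55, 8.6 and 9.55 in the diestrus controls and 9.26, 4.4 and 3.91 in the diestrus cocaine libraries (log2 fold change -0.79 ± 0.19 (SE), adjusted p = 0.00726), with cocaine library 1 at control height in deposited values. The Cacna1c window with both AP-1 motifs, in the region at chr6:118882825-118888478, was at 9.68, 9.94 and 11.9 in the diestrus controls and 12.2, 4.91 and 4.59 in the diestrus cocaine libraries (log2 fold change -0.72 ± 0.19 (SE), adjusted p = 0.0123), and here library 1 lay above every control while the other two lay below. Scn2b, a sodium beta subunit gene, fell at a region that covers its promoter and has its strongest point 4.28 kb from the nearest start, in an intron: 15.1, 17 and 16 in the diestrus controls and 16.4, 9.94 and 6.43 in the diestrus cocaine libraries (log2 fold change -0.71 ± 0.15 (SE), adjusted p = 0.00369).

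The internal promoter region of Cacna1a was at 31.6, 46.1 and 38.5 in the diestrus controls and 37.2, 29.9 and 22.9 in the diestrus cocaine libraries (log2 fold change -0.39 ± 0.09 (SE), adjusted p = 0.00786). A region that reaches from Cacna2d2 into the neighbouring gene Tmem115, with its summit outside Cacna2d2, was at 29, 36.7 and 30.1 in the diestrus controls and 32.4, 27.7 and 15 in the diestrus cocaine libraries (log2 fold change -0.45 ± 0.12 (SE), adjusted p = 0.0117). The further falls were in Cacna1a (log2 fold change -0.66 ± 0.17 (SE), adjusted p = 0.0107), Cacng1 (log2 fold change -0.69 ± 0.17 (SE), adjusted p = 0.00916) and Cacng2 (log2 fold change -0.58 ± 0.14 (SE), adjusted p = 0.00726). The rise in Cacna2d1 at chr5:16221244-16223434, from 7.75, 6.48 and 7.78 to 11.3, 12.7 and 10.8, was the largest (log2 fold change 0.62 ± 0.17 (SE), adjusted p = 0.0171). After normalization, diestrus cocaine library 1 lay within the control range in 7 of the 19 lower and 2 of the 6 higher regions, and the other two libraries in none. Library 1 was also the one cocaine library with the Slc17a7 peak, and the summed astrocyte markers were higher in all 3 cocaine libraries than in their controls; their part in these calls was not tested. The falls at Cacna1h, Cacna1s, Cacna1c, Scn2b and the Cacna1a promoter each lost their call without cocaine library 2 or without library 3. Without library 1, 16 regions rose and 46 fell. Over all regions tested, the same step raised the counts from 2456 and 2306 to 5377 and 5330. For channel gene regions the counts were 0 and 3 without library 2, and 0 and 1 without library 3. Leaving out a diestrus control also moved them, to 1 and 18, 2 and 8, and 1 and 6 without libraries 1, 2 and 3.

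In proestrus the regions that rose were in Cacna2d1 and Cacna2d3, whose products are alpha2delta subunits, and in Scn2a. The AP-1 window of Cacna2d1 shown above, in the region at chr5:16000774-16002116, was at 6.02, 4.99 and 4.36 in the proestrus controls and 8.51, 8.23 and 9.01 in the proestrus cocaine libraries (log2 fold change 0.68 ± 0.16 (SE), adjusted p = 0.0131). A second Cacna2d1 intron, at chr5:16183239-16185379, was at 3.91, 3.13 and 4.08 in the proestrus controls and 8.11, 5.67 and 6.39 in the proestrus cocaine libraries (log2 fold change 0.79 ± 0.19 (SE), adjusted p = 0.0144). The Cacna2d3 window shown above, in the region at chr14:29295086-29297935, was at 8.97, 8.12 and 7.96 in the proestrus controls and 15, 12.6 and 13 in the proestrus cocaine libraries (log2 fold change 0.64 ± 0.14 (SE), adjusted p = 0.0104), and Scn2a at chr2:65721658-65722991 was at 4.01, 3.48 and 3.89 in the proestrus controls and 6.61, 5.13 and 6.6 in the proestrus cocaine libraries (log2 fold change 0.60 ± 0.16 (SE), adjusted p = 0.0282). None of these 4 kept its call with the replicate number as a block, which left 0 higher and 4 lower.

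The largest fall was in a Cacna1c intron at chr6:118912986-118916316, at 8.02, 7.19 and 7.11 in the proestrus controls and 4.61, 5.03 and 4.29 in the proestrus cocaine libraries (log2 fold change -0.81 ± 0.16 (SE), adjusted p = 0.00476). Scn4b, whose beta4 product is abundant in medium spiny neurons, fell over a region that spans the whole gene, with its strongest point 15.2 kb from its start in an untranslated exon: 13.7, 11.5 and 11.1 in the proestrus controls and 7.81, 6.42 and 8.59 in the proestrus cocaine libraries (log2 fold change -0.75 ± 0.19 (SE), adjusted p = 0.0192). The Scn2b region was at 13.7, 14.2 and 15.3 in the proestrus controls and 10.7, 9.52 and 10.2 in the proestrus cocaine libraries (log2 fold change -0.56 ± 0.15 (SE), adjusted p = 0.0242). Scn8a, an alpha subunit of the axon initial segment, fell at 2 introns, chr15:101022680-101025130 (log2 fold change -0.72 ± 0.17 (SE), adjusted p = 0.0161) and chr15:100980074-100985382 (log2 fold change -0.65 ± 0.18 (SE), adjusted p = 0.0313), and Cacna1e at 1 (log2 fold change -0.60 ± 0.17 (SE), adjusted p = 0.0361). The counts of 4 and 9 became 1 and 2 without proestrus cocaine library 1, 8 and 17 without library 2 (against 2229 and 1945 of all regions), 2 and 3 without library 4, 3 and 1 without control 1, 0 and 2 without control 2 and 1 and 3 without control 3. Only the Cacna1c fall kept an adjusted p under the threshold whichever proestrus library was left out, among the regions named.

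In males the largest rises were in Scn11a and Cacna2d3. Fold changes are on the normalized scale. Where library values are printed below, that scale gave larger male rises and smaller male falls than the deposited values do. The Scn11a intron at chr9:119796366-119797520, in a gene with no promoter peak in any library, was at 7.39, 6.2 and 6.7 in the male controls and 10.1 and 8.95 in the male cocaine libraries (log2 fold change 0.92 ± 0.17 (SE), adjusted p = 0.000491). The Cacna2d3 intron that rose in proestrus was at 5.86, 6.75 and 6.26 in the male controls and 7.98 and 9.3 in the male cocaine libraries (log2 fold change 0.89 ± 0.16 (SE), adjusted p = 0.000425); in diestrus it was at 10.7, 13.3 and 13.5 in the diestrus controls and 16.1, 17.9 and 11.5 in the diestrus cocaine libraries (log2 fold change 0.21 ± 0.14 (SE), adjusted p = 0.324). A second Cacna2d3 intron (log2 fold change 0.71 ± 0.18 (SE), adjusted p = 0.0123), a Cacna1h intron at chr17:25418568-25421417 (log2 fold change 0.78 ± 0.18 (SE), adjusted p = 0.00492) and a Cacna1e intron (log2 fold change 0.59 ± 0.16 (SE), adjusted p = 0.0161) rose as well. An internal promoter of Cacnb2, a beta subunit gene, fell most: its region at chr2:14762420-14764957 was at 6.76, 7.71 and 7.9 in the male controls and 3.39 and 2.67 in the male cocaine libraries (log2 fold change -0.92 ± 0.20 (SE), adjusted p = 0.00327), while all 12 female libraries lay between 2.83 and 4.51. Falls of the same order were in Cacnb4 (log2 fold change -0.87 ± 0.20 (SE), adjusted p = 0.00438), Scn2a (log2 fold change -0.70 ± 0.19 (SE), adjusted p = 0.017), Scn1a (log2 fold change -0.63 ± 0.19 (SE), adjusted p = 0.0318) and Cacna1a (log2 fold change -0.59 ± 0.18 (SE), adjusted p = 0.0334). The Scn2a intron was at 8.67, 6.2 and 6.15 in the male controls and 3.17 and 3.14 in the male cocaine libraries, and the Scn1a window with an AP-1 motif at 8.92, 10.9 and 7.46 and 4.7 and 3.72. At the Cacnb2 and Scn2a regions the 3 male controls lay above the other 14 libraries, whereas at Scn1a the lowest male control (7.46) was level with diestrus cocaine library 1 (7.48). The summed cortical markers were 29.3 to 31.5 in those same controls. With 2 male cocaine libraries the counts rest on each: 2 and 2 without library 1, 2 and 0 without library 2, 8 and 4 without male control 1, 5 and 4 without control 2, and 4 and 4 without control 3. Of the regions named, Scn11a and Cacna2d3 kept adjusted p under the threshold in each of these.

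**Figure D5:**
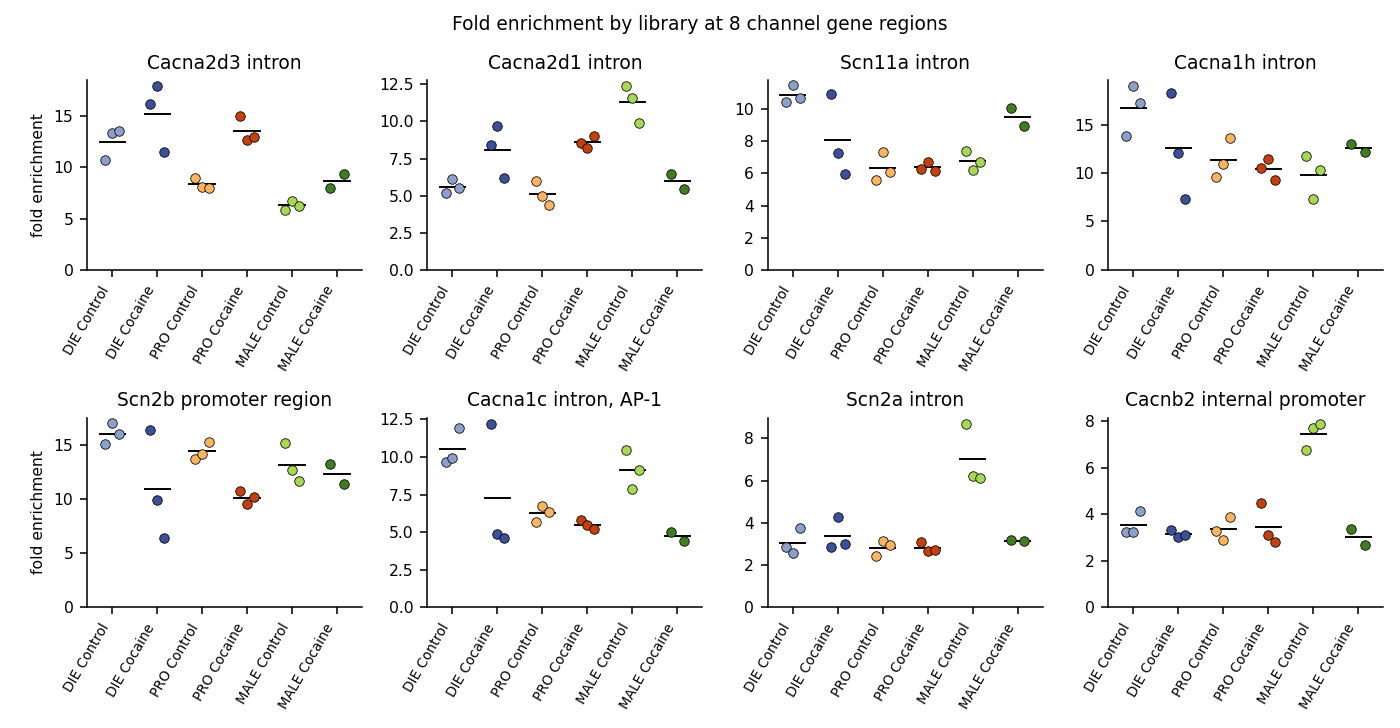
Fold enrichment (y, linear, from 0) in each library at 8 channel gene regions; points are libraries, lines group means, and colours the 6 groups. The Cacna2d1 intron is at 8.23 to 9.01 in proestrus cocaine libraries and 4.36 to 6.02 in their controls, and the Scn2a intron is at 6.15 to 8.67 in male controls and at most 4.28 in every other library.

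Of 263 regions, 2 were higher in diestrus than in proestrus controls (0.760%, against 0.531%) and 0 were lower (against 0.18%); at an unadjusted p under 0.05, 48 differed (18.3%, against 15.4%). The 2 were a Cacna1c intron at chr6:119072167-119074459, at 8.39, 7.48 and 7.68 in the diestrus controls and 3.7, 3.95 and 4.27 in the proestrus controls (log2 fold change 0.79 ± 0.16 (SE), adjusted p = 0.0176), and the Cacna1s intron, at 9.55, 8.6 and 9.55 in the diestrus controls and 3.91, 4.99 and 4.55 in the proestrus controls (log2 fold change 0.85 ± 0.19 (SE), adjusted p = 0.0257). Without diestrus control 1 or 3, or proestrus control 1 or 2, the count was 0. Male controls exceeded diestrus controls at 10 regions (3.80%, against 12.9%) and fell below them at 38 (14.4%, against 12.3%), of which Cacna2d3 held 10 and Cacna1c 7. Against proestrus, 15 were higher (5.70%, against 8.03%) and 26 lower (9.89%, against 7.18%).

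The Cacna2d3 window shown above gave the lowest adjusted p of the 263 between male and diestrus controls, at 10.7, 13.3 and 13.5 in the diestrus controls, 8.97, 8.12 and 7.96 in the proestrus controls, and 5.86, 6.75 and 6.26 in the male controls (against diestrus, log2 fold change -1.18 ± 0.14 (SE), adjusted p = 7.01e-07; against proestrus, log2 fold change -0.79 ± 0.14 (SE), adjusted p = 0.000332). Cacna1h, Scn11a, Cacna1e and Cacnb4 introns were also lower in males than in diestrus, and their log2 fold changes were -0.99, -0.88, -0.84 and -0.63. Regions higher in males were in Scn2a, Scn1a, Cacnb2 and Cacna2d1. Scn2a at chr2:65690425-65692448 was at 2.84, 2.57 and 3.74 in the diestrus controls, 2.43, 3.13 and 2.94 in the proestrus controls, and 8.67, 6.2 and 6.15 in the male controls (against diestrus, log2 fold change 0.98 ± 0.17 (SE), adjusted p = 9.69e-05; against proestrus, log2 fold change 0.96 ± 0.17 (SE), adjusted p = 0.000252). The Cacna2d1 AP-1 window was at 5.16, 6.14 and 5.5 in the diestrus controls, 6.02, 4.99 and 4.36 in the proestrus controls, and 12.4, 11.6 and 9.88 in the male controls (against diestrus, log2 fold change 0.85 ± 0.16 (SE), adjusted p = 0.000243; against proestrus, log2 fold change 0.77 ± 0.16 (SE), adjusted p = 0.00122). Each of these regions kept its call when any single library was left out, but the counts did not: without male control 2 they were 9 and 19 against diestrus and 11 and 8 against proestrus, without male control 3 they were 8 and 23, and 7 and 14, and without diestrus control 2 and 3 the lower counts were 25 and 18. Without male control 1 the counts against proestrus were 9 and 24, and without proestrus control 1, 2 or 3 the counts against proestrus were 7 and 14, 9 and 13, and 9 and 11. These contrasts share the male and female controls with the cocaine contrasts, and the male controls are the libraries with the most cortical signal.

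Whether the cocaine response differed between groups was tested as an interaction. Between males and diestrus, 23 channel gene regions had a response higher in males (8.75%, against 7.44%) and 10 a lower one (3.80%, against 7.78%). Between males and proestrus the counts were 16 (6.08%, against 5.26%) and 8 (3.04%, against 5.78%). Between proestrus and diestrus none passed, against 0.00276% of all regions, and 22 did at an unadjusted p under 0.05 (8.37%, against 6.96%); without diestrus cocaine library 1, 3 were higher and 0 lower, against 125 and 49 of all regions. The promoter region with the largest change there, the 5′ promoter of Cacnb2, was at 5.29, 7.93 and 6.85 in the diestrus controls, 10.3, 9.81 and 8.61 in the diestrus cocaine libraries, 6.86, 8.35 and 7.11 in the proestrus controls, and 7.31, 7.06 and 7.64 in the proestrus cocaine libraries (log2 fold change -0.62 ± 0.22 (SE), adjusted p = 0.604).

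The largest difference between males and diestrus was at the Scn11a intron, at 10.5, 11.5 and 10.7 in the diestrus controls, 10.9, 7.3 and 5.97 in the diestrus cocaine libraries, 7.39, 6.2 and 6.7 in the male controls, and 10.1 and 8.95 in the male cocaine libraries (log2 fold change 1.42 ± 0.22 (SE), adjusted p = 0.000246), and it was called against proestrus as well (log2 fold change 0.99 ± 0.22 (SE), adjusted p = 0.00628), where the values were 5.6, 7.31 and 6.07 in controls and 6.31, 6.74 and 6.18 after cocaine. Cacna1h followed at chr17:25418568-25421417, at 13.8, 19 and 17.2 in the diestrus controls, 18.3, 12.1 and 7.35 in the diestrus cocaine libraries, 11.7, 7.3 and 10.3 in the male controls, and 13 and 12.2 in the male cocaine libraries (log2 fold change 1.32 ± 0.24 (SE), adjusted p = 0.000836). The opposite sign was seen at the Cacna2d1 AP-1 window, which was at 12.4, 11.6 and 9.88 in the male controls and 6.45 and 5.46 in the male cocaine libraries and rose in proestrus (log2 fold change -1.14 ± 0.24 (SE), adjusted p = 0.00364). At Scn1a the response was lower in males than in diestrus (log2 fold change -1.06 ± 0.26 (SE), adjusted p = 0.00755). The counts of 23 and 10 became 43 and 19 without diestrus cocaine library 1, against 5206 and 5237 of all regions. They became 11 and 4 without library 2 and 11 and 5 without library 3. Without male cocaine library 1 they were 7 and 3, and without male cocaine library 2 they were 8 and 1. They were 11 and 4 without male control 2, 13 and 7 without male control 3, and 14 and 4 and 12 and 7 without diestrus controls 2 and 3. Those of 16 and 8 became 2 and 4 without male cocaine library 1, 4 and 3 without library 2, 3 and 5 without male control 2 and 9 and 3 without male control 3. They were 7 and 5, 27 and 15, and 9 and 5 without proestrus cocaine libraries 1, 2 and 4, and 10 and 5, 10 and 5, and 8 and 5 without proestrus controls 1, 2 and 3. Leaving out diestrus cocaine library 1 or 3, which enter only through the shared spread, gave 25 and 15 or 18 and 14.

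Regions called in 4 to 13 libraries were also compared over all 8 cocaine and 9 control libraries with Fisher's exact test, two-sided. Of 586 channel gene regions none passed adjustment over the 63463 tested, and neither did any other region (smallest adjusted p = 0.143). At an unadjusted p under 0.05, 5 were called more often after cocaine (0.853%, against 3.73%) and 89 less often (15.2%, against 9.31%). The lowest values, unadjusted p = 0.00226 and adjusted p = 0.215 by Fisher's exact test, were shared by several intragenic regions. Introns of Cacna2d2, Cacna1d and Scn8a had calls in 2 of the 8 cocaine and all 9 control libraries. An intron of Cacna1a and a further intragenic region each of Cacna2d2 and Scn8a were called in 0 of 8 and 7 of 9. Without diestrus cocaine library 1, 114 of 530 were called less often, against 7350 of 58144 over all regions. Without diestrus control 1, 2 or 3, 52, 43 and 47 were, against 3793, 3244 and 3189 of all regions. A stratified exact test within the diestrus, proestrus and male pairs gave 1 and 75 of 586, against 1432 and 5014 of 63463. Cutting libraries to the same number of peaks gave 9 and 20 of 286, against 3237 and 2003 of 35280. Slc17a7, in 1 of 8 and 9 of 9 libraries, had the same direction.

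A list of 22 genes was also followed. Most encode proteins that bind or regulate these channels, among them the fibroblast growth factor homologs Fgf12 and Fgf14, the ankyrins Ank2 and Ank3 that anchor sodium channels, and the release-site proteins Rims1 and Rims2. The list also holds the separate sodium leak channel gene Nalcn, with Unc79 and Unc80. Promoters of 20 carried a peak in all 17 libraries; the exceptions were the calcium channel inhibitors Gem, in 13, and Rrad, in 14. Of their 888 regions, 3 (0.338%, against 1.12% of all regions) were called only after cocaine and 13 (1.46%, against 1.28%) only in controls in diestrus. Proestrus gave 25 (2.82%, against 2.42%) and 14 (1.58%, against 1.65%), and males 7 (0.788%, against 1.68%) and 121 (13.6%, against 16.7%). In the 197 tested for height, 9 rose (4.57%, against 6.79%) and 8 fell (4.06%, against 6.38%) in diestrus, while proestrus gave 3 (1.52%, against 2.75%) and 2 (1.02%, against 2.45%) and males 3 (1.52%, against 3.51%) and 20 (10.2%, against 5.2%). Male controls were higher than diestrus controls at 27 (13.7%, against 12.9%) and lower at 19 (9.64%, against 12.3%), and against proestrus controls at 12 (6.09%, against 8.03%) and 8 (4.06%, against 7.18%).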

How the data were processed

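ATAC-seq libraries were made from sorted NeuN+ nuclei, and 17 peak lists were used. The authors trimmed adapters, aligned reads to mm10 with BWA and called peaks in each library alone with MACS2, whose version and options are not given in the sources used here. The deposited lists give per peak a score, a fold enrichment ratio over local background and −log10 p and q values, all within a library. Read depth is not in these lists. The study reports read numbers for its ATAC-seq libraries in its supplement, and they were not used here. The member genes and all lists were chosen with earlier results of these data known.

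Overlapping autosomal peaks were merged, and regions called in at least 2 libraries of a group were kept. Genes came from GENCODE M21. Groups were compared by calls, by Fisher's exact test over regions called in 4 to 13 libraries, and by limma 3.58.1 (R 4.3.3) on quantile-normalized log2 fold enrichment of the 36170 regions called in all 17 libraries, with trend and robust options, all groups in 1 fit and Benjamini-Hochberg adjustment at 0.05. Regions of 1 gene share a locus and are not replicates. Library values printed are as deposited, and fold changes are on the normalized scale.

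Values of 2 of the genes are not reported here by name. The text otherwise names every gene's promoter state, up to 4 regions per direction among those separating 2 groups, ranked by median fold enrichment, up to 10 regions past the adjusted p per contrast, and the regions tied at the lowest Fisher p-value. Alternatives were a −log10 q of at least 5, the strongest 74532 peaks of each library, windows at summits, median centring, a GC correction, regions called in at least 16 libraries, a replicate block and each library left out. Python 3.11.15 with pysam 0.24.0 and scipy 1.17.1 was used.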

Additional observations from a re-analysis of the deposited data

Results flagged for a closer look

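At 14 regions named here, the response to cocaine differed between males and females of 1 or both stages by the interaction term of the limma fit. Against diestrus, 8.75% of channel gene regions had a higher male response (7.44% of all regions) and 3.80% a lower one (7.78%). Against proestrus, 6.08% had a higher one (5.26% of all regions) and 3.04% a lower one (5.78%). Benjamini-Hochberg adjustment was over 36170 regions. Values are log2 differences, male response minus female response. The lists below hold the lowest adjusted p of each contrast, and 6 regions are in both lists. Of the others, the Scn1a (-0.871, adjusted p = 0.0263) and Cacng8 (1.05, adjusted p = 0.0238) regions also passed against proestrus. The listed Scn2a region also passed against diestrus (-0.74, adjusted p = 0.0369). The remaining listed regions passed against 1 stage only. Chance was not assessed further, and no explanation was tested.

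Against diestrus, the male response was higher at an intron of Scn11a (1.42, adjusted p = 0.000246), at 3 introns of Cacna1h (1.32, adjusted p = 0.000836; 1.13, adjusted p = 0.00531; 1.22, adjusted p = 0.00989), at the promoter regions of Scn2b (0.983, adjusted p = 0.00488) and Cacna2d2 (0.861, adjusted p = 0.0114) and at a Cacng8 intragenic region (1.11, adjusted p = 0.0149). It was lower at an Scn1a intron (-1.06, adjusted p = 0.00755) and at 2 Cacna2d1 introns (-0.946, adjusted p = 0.00934, and -0.942, adjusted p = 0.0153).

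Against proestrus, the male response was higher at the same Scn11a intron (0.992, adjusted p = 0.00628), at 2 of the Cacna1h introns (0.955, adjusted p = 0.0117, and 1.01, adjusted p = 0.0134), at the Scn2b (0.833, adjusted p = 0.0159), Cacna2d2 (0.82, adjusted p = 0.0187) and Scn4b (0.991, adjusted p = 0.0223) promoter regions and at a Cacng7 intragenic region (0.868, adjusted p = 0.0212). It was lower in Cacna2d1 (-1.14, adjusted p = 0.00364), Scn2a (-0.962, adjusted p = 0.0124) and Cacnb4 (-0.96, adjusted p = 0.0187). Both sets use the same male libraries, of which 2 received cocaine.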

How the results depend on the processing

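No log2 change of a named region changed sign under the alternatives run, but the order of some paired counts and shares turned. Regions called only in male and only in diestrus controls went from 32 and 56 to 39 and 27 with −log10 q of at least 5, against 11300 and 2205 of all 98833 regions. Those for male and proestrus controls went from 44 and 36 to 24 and 27 with the same number of strongest peaks, against 7602 and 1914 of all 93195 regions. They became 56 and 73, 52 and 76, and 61 and 62 without proestrus control 1, 2 and 3. Over all regions those pairs were 17399 and 4905, 16781 and 4354, and 18071 and 3554. In the fit, higher and lower calls in males went from 5 and 7 to 5 and 4 with −log10 q of at least 5, and to 8 and 4, 5 and 4, 2 and 0, and 10 and 8 without male control 1, male control 2, male cocaine library 2 and proestrus cocaine library 2. Proestrus calls went from 4 and 9 to 3 and 1 without proestrus control 1, male against proestrus controls from 15 and 26 to 11 and 8 without male control 2, and the male minus proestrus response from 16 and 8 to 3 and 5 without male control 2 and 2 and 4 without male cocaine library 1. The share of channel gene regions in males also turned with the same number of strongest peaks. Causes of the shifts below were not tested. With −log10 q of at least 5, counts of regions called in every library of one group and none of the other went from 35 to 21 (diestrus controls over cocaine), 9 to 5 and 31 to 7 (proestrus cocaine and controls), 4 to 0 (male cocaine), 11 to 4 (proestrus over diestrus controls), 56 to 27 (diestrus over male controls) and 36 to 12 (proestrus over male controls), and in the fit the regions lower after cocaine in males went from 7 to 4 and those lower in male than proestrus controls from 26 to 17. At that q setting the separation counts over all 98833 regions were 1012, 2237, 1040, 546, 601, 2205 and 627, in the order given. Those in the fit were 1413 and 1983 of 28379. With the same number of strongest peaks in each library, the counts were 22, 3, 9, 17 and 41 for diestrus controls, proestrus cocaine and controls, and male cocaine and controls, 35 and 5 between diestrus and proestrus controls, and 24 for male over proestrus controls. Over all 93195 regions they were 1130, 2207, 1304, 3873 and 8779, then 2958 and 975, and 7602. Windows at summits gave 15 and 11 for proestrus and male cocaine, against 3882 and 3312 of all 164996 regions.

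With the replicate block, proestrus calls went from 4 and 9 to 0 higher and 4 lower, and the male minus proestrus response from 16 and 8 to 9 and 4. The numbers are not known to pair the libraries: same-numbered deviations correlated at -0.229, 0.00474 and -0.143 for diestrus numbers, 0.149 and 0.0976 for proestrus ones, and 0.00636 and 0.00525 for male ones. The GC correction gave 9 higher in males, 5 for diestrus over proestrus controls and 6 lower for the male minus diestrus response. Median centring also gave 6 there, and regions called in at least 16 libraries gave 5 for diestrus over proestrus controls.

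Leaving out 1 library of the groups compared gave ranges of calls. For regions separating groups this step can only keep or raise a count. For regions separating groups they were 6 to 15 and 36 to 146 for diestrus cocaine and controls, 11 to 41 and 41 to 66 for proestrus, 4 to 9 and 184 to 268 for males, 69 to 93 and 14 to 34 for diestrus and proestrus controls, 38 to 51 and 63 to 110 for male and diestrus controls, and 52 to 77 and 38 to 76 for male and proestrus controls. In the fit, higher and lower calls were 0 to 16 and 1 to 46 for diestrus, 0 to 8 and 1 to 17 for proestrus, 2 to 8 and 0 to 4 for males, 0 to 2 higher for diestrus over proestrus controls, 8 to 12 and 18 to 40 for male against diestrus controls, 7 to 11 and 8 to 24 against proestrus controls, 7 to 43 and 1 to 19 for the male minus diestrus response, 2 to 27 and 3 to 15 for male minus proestrus, and 0 to 3 higher for proestrus minus diestrus. Promoters called throughout were 31 to 32.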
